A study of Mus musculus with 26 samples.

Results

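The messenger RNAs of 10 genes that govern mitochondrial and fatty acid metabolism were followed in the left ventricle of mice. They are the coactivators Ppargc1a and Ppargc1b (PGC-1α and PGC-1β), the estrogen-related receptors Esrra, Esrrb and Esrrg, the fatty acid receptors Ppara and Ppard, the nuclear respiratory factors Nrf1 and Gabpa, and Tfam. They were taken by gene name from the count matrix, where they are 10 of the 56941 genes listed, and all 10 were among the 15357 genes abundant enough to be tested. RNA was sequenced from mice aged 12 to 16 weeks that had received saline for 2 weeks from an implanted osmotic minipump. All mice, controls included, had both copies of Ppp2r2a flanked by loxP sites; this gene encodes B55α, a regulatory subunit of protein phosphatase 2A. The knockout mice (cKO, aMHC-CreTg/0-Ppp2r2aL/L, 7 males and 7 females) carried in addition a Cre transgene under the αMHC promoter, which is active in cardiomyocytes, and the control mice (Ctrl, aMHC-Cre0/0-Ppp2r2aL/L, 6 males and 6 females) did not. The labels give the strain as C57BL/6N and the series describes a mixed background, with C57BL6/N for the floxed line and FVB for the Cre line; Cre-only mice were not analysed here. The labels number the samples without saying that each came from a separate mouse; each is taken here as 1 mouse, and p-values measure the spread between samples, which may be technical. The sequenced tissue also held vascular, connective tissue and immune cells, in which the αMHC promoter is not known to act. In such bulk tissue, fewer cells of a type and less RNA per cell cannot be told apart.

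PGC-1α and PGC-1β do not bind DNA themselves; they dock on transcription factors and raise the transcription of the factors' target genes. The heart, which burns mainly fatty acids, relies on them together with the ERRs, which act on genes of the citric acid cycle and the respiratory chain, and the PPARs, which sense fatty acids and act on genes of their uptake and oxidation. NRF-1 and GABP, whose DNA-binding subunit is the product of Gabpa, act on nuclear genes of the respiratory chain and on Tfam, whose product packs mitochondrial DNA and starts its transcription.

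Promoter sequences show which of these binding motifs lie near the start sites of the regulators and of the target genes called in males. RefSeq sequence of build GRCm38.p6 was used from 250 bases before to 50 bases after each annotated start. It covered 9 of the 10 regulators, in 14 windows, and 7 of the 8 target genes called in males. Ppargc1b and Acaa2 were left out of this search. Both strands were searched for the ERR element TCAAGGTCA, its nuclear receptor half-site AGGTCA (contained in the ERR element), the PPAR direct repeat (AGGNCA, 1 base of any kind, AGGNCA), the NRF-1 site (GCGCA, 1 base of any kind, GCGC) and the GABP site CCGGAAG. Among all 32851 mouse windows of this length, 0.423% held the ERR element, 16.3% the half-site, 0.381% the direct repeat, 4.603% the NRF-1 site and 8.86% the GABP site. Of the regulators, Ppara had an NRF-1 site beginning 31 bases before its start, and Gabpa and Tfam each had a GABP site, beginning 93 and 47 bases before the start. No window of Ppargc1a, Esrra, Esrrb, Esrrg, Ppard or Nrf1 held any of these letters. Among the target genes, Sdhb held a half-site 86 bases before and a GABP site 6 bases after the start, and Atp5c1 an NRF-1 site 17 bases before one of its starts. Acadvl held a half-site 87 bases before and Slc25a4 a GABP site 130 bases before the start, and the windows of Eci1 and Cycs held none of the motifs. Sdhd held an NRF-1 site and a GABP site, 79 and 46 bases before the start, and an ERR element that begins 36 bases after it. The 6 windows below are printed 5′ to 3′ along the gene's strand, with matches to the searched motifs in capitals.
Ppara, chr15:85735526-85735825, plus strand: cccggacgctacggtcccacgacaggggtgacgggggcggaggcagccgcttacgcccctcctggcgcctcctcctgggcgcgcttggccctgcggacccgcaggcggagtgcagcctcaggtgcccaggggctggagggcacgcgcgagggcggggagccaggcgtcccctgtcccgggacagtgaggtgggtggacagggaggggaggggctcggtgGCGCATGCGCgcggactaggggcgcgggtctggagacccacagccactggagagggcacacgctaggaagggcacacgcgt
Gabpa, chr16:84834874-84835173, plus strand: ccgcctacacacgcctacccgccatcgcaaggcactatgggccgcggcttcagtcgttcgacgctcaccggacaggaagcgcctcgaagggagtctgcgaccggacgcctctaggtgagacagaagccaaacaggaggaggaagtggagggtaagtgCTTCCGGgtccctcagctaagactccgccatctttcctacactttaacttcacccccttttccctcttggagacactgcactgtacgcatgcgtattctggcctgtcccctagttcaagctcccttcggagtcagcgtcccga
Tfam, chr10:71237995-71238294, minus strand: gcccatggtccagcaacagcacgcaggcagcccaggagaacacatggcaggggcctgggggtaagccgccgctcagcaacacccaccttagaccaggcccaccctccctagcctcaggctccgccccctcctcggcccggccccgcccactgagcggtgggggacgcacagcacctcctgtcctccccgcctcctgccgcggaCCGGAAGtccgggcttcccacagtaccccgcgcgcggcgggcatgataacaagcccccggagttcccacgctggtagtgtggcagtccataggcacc
Sdhb, chr4:140961021-140961320, plus strand: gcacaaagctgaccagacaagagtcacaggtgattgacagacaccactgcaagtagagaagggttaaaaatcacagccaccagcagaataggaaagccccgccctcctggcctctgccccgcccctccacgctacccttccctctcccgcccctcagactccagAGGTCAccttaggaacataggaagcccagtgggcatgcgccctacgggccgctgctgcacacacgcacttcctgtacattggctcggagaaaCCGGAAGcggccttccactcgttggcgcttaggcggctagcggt
Atp5c1, chr2:10080383-10080682, minus strand: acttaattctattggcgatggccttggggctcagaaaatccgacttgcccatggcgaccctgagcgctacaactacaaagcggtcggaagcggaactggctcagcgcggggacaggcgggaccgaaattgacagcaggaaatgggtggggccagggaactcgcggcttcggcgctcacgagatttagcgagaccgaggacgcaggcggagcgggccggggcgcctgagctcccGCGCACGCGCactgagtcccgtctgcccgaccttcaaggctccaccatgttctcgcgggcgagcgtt
Sdhd, chr9:50603800-50604099, minus strand: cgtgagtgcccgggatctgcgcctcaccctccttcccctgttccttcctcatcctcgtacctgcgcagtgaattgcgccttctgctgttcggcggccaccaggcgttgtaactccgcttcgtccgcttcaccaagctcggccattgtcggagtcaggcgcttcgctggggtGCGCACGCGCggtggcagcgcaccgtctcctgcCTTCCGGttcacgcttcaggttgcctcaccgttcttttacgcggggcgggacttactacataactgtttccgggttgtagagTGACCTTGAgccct
A match is a description of the letters only; the data hold no measurement of binding.

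The libraries held from 14403100 (cKO female 2) to 30867400 counts, both rounded, and levels are given as CPM, counts scaled to a common library total after TMM normalization. Ppp2r2a, the deleted gene, was 11.8 to 16.2 CPM in cKO males against 24.1 to 47.7 CPM in Ctrl males, and 9.96 to 16.2 CPM in cKO females against 36.2 to 46.7 CPM in Ctrl females. The genotypes did not overlap, although Ctrl males 3 and 6 (24.9 and 24.1 CPM) were lower than the remaining 4 controls of that sex, at 41.9 to 47.7 CPM. The tissue label was checked with markers: all 8 cardiomyocyte markers were abundant, from at least 793 CPM (Ryr2) in every mouse, while of the 5 atrial markers Myl7 and Sln were at or below 0.142 CPM, Myl4 at 1.11 to 2.31, Stard10 at 12.9 to 31.5 and Nppa at 86.1 to 855 CPM.

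No regulator passed the test between cKO and Ctrl mice in either sex. A gene was called at an edgeR adjusted p under 0.05 over all genes tested. In males 0 of 10 were called, where 0.443% of all genes were (0.182% higher and 0.26% lower), and in females 0 of 10, where 0.0326% were (0.026% higher and 0.00651% lower). For the difference of the genotype effect between the sexes, 0 of 10 regulators and 0% of all genes were called. At an unadjusted p under 0.05 there were 2 regulators in males (Ppard and Tfam), 1 in females (Nrf1) and 1 for the difference (Nrf1), against 2027, 791 and 608 of the 15357 genes. DESeq2 and limma voom also called 0 of 10 in each of these comparisons. The ranges of cKO and Ctrl mice overlapped for every regulator in both sexes, as the plot of each mouse shows.

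**Figure D1:**
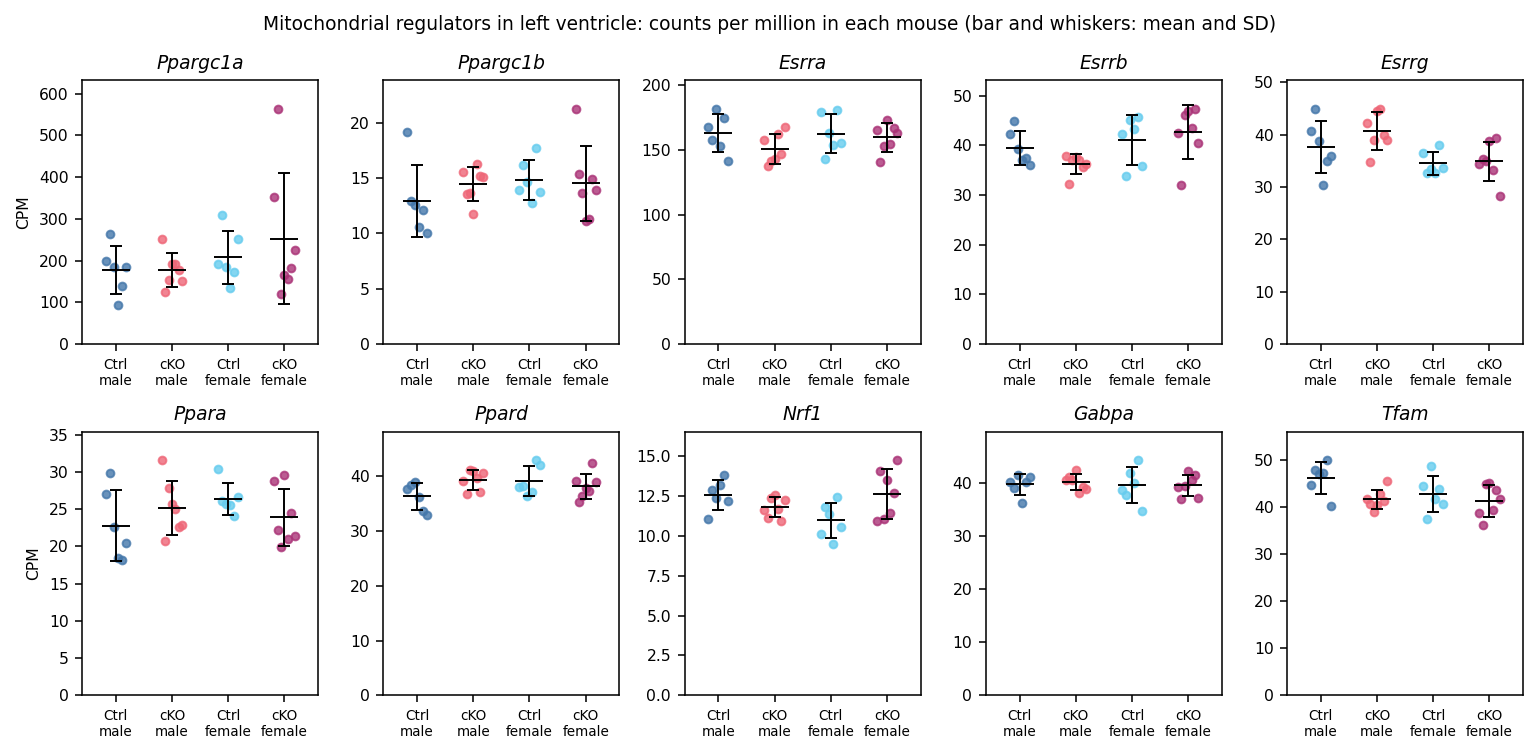
CPM (y axis from 0) of each regulator in each of the 26 mice, by group; each point is 1 mouse, the bar is the group mean and the whiskers are 1 SD. The groups overlap for all 10 genes, and cKO female 2 stands at 564 CPM of Ppargc1a.

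Ppargc1a, whose product is the inducible coactivator of the pair, varied most between mice. Its lowest, median and highest values were 93.6, 184 and 264 CPM in Ctrl males and 125, 177 and 252 CPM in cKO males. They were 133, 189 and 309 CPM in Ctrl females and 121, 183 and 564 CPM in cKO females. The medians of the 4 groups lay close together, and cKO females 2 (564 CPM) and 1 (352 CPM) exceeded all other mice. The log2 fold change, cKO over Ctrl, was 0.0041 (± 0.30 SE, 95% interval -0.62 to 0.63, adjusted p = 0.997 by edgeR) in males and 0.28 (± 0.30 SE, 95% interval -0.34 to 0.91, adjusted p = 0.982 by edgeR) in females. Without cKO female 2 the female value was -0.046. These intervals correspond to changes of -35.0% to 54.8% in males and -21.2% to 88.2% in females.

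cKO female 2 and Ctrl female 2, the mice with the highest Ppargc1a of their groups, were at the same time the lowest of their groups in other regulators. cKO female 2 was lowest in 5 of the 10 (Esrra, Esrrb, Ppard, Gabpa and Tfam), and Ctrl female 2 in 4 (Esrra, Esrrb, Esrrg and Tfam). cKO female 2 was also the shallowest library, and the part of depth in these values was not tested.

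Ppargc1b, the second coactivator, was at much lower levels, 10.03 to 19.2 CPM in Ctrl males, 11.8 to 16.3 in cKO males, 12.7 to 17.8 in Ctrl females and 11.1 to 21.3 in cKO females. The highest values came from Ctrl male 1 (19.2 CPM) and cKO female 1 (21.3 CPM), and the groups overlapped. The log2 fold change was 0.16 (± 0.14 SE, adjusted p = 0.672 by edgeR) in males, with 6 of 7 cKO mice above the control mean, and -0.028 (± 0.14 SE, adjusted p = 0.999 by edgeR) in females.

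Esrra, the ERR whose own transcription PGC-1α can raise, was 142 to 182 CPM in Ctrl males and 137 to 168 CPM in cKO males. The mean was 163 ± 14.9 CPM (SD, n = 6) against 151 ± 11.4 CPM (SD, n = 7), and 6 of 7 cKO males lay below the control mean. The log2 fold change was -0.11 (± 0.064 SE, 95% interval -0.24 to 0.022, adjusted p = 0.483 by edgeR), within the spread between mice. In females Esrra was 143 to 181 CPM in Ctrl and 141 to 173 CPM in cKO mice, with a log2 fold change of -0.025 (± 0.065 SE, adjusted p = 0.997 by edgeR). For Esrrb, the ERR best known from stem cells, the lowest, median and highest values were 36.0, 38.3 and 44.9 CPM in Ctrl males and 32.2, 37.1 and 37.8 CPM in cKO males. All 7 cKO males lay below the control mean, but the groups overlapped, and the log2 fold change was -0.12 (± 0.079 SE, 95% interval -0.28 to 0.039, adjusted p = 0.529 by edgeR). In females Esrrb was 33.7, 42.8 and 45.8 CPM in Ctrl and 32.0, 43.4 and 47.4 CPM in cKO mice, with a log2 fold change of 0.058 (± 0.079 SE, adjusted p = 0.985 by edgeR).

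Esrrg, the ERR of tissues with a high demand for oxidative energy, had values of 30.4, 37.4 and 44.8 CPM in Ctrl males and 34.8, 39.9 and 45.0 CPM in cKO males. Here 6 of 7 cKO males lay above the control mean, with a log2 fold change of 0.11 (± 0.078 SE, adjusted p = 0.572 by edgeR). In females it was 32.7, 33.6 and 38.0 CPM in Ctrl and 28.2, 34.9 and 39.5 CPM in cKO mice, with a log2 fold change of 0.017 (± 0.079 SE, adjusted p = 0.999 by edgeR). The 3 ERRs thus had fold changes of mixed sign in males, and none passed the test.

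Ppara encodes the PPAR that acts on fatty acid oxidation genes. Its values were 18.2, 21.6 and 29.9 CPM in Ctrl males and 20.7, 25.02 and 31.6 CPM in cKO males, and 24.1, 25.95 and 30.4 CPM in Ctrl females and 20.0, 22.2 and 29.6 CPM in cKO females. The fitted log2 fold changes had opposite signs, 0.15 (± 0.12 SE, adjusted p = 0.636 by edgeR) in males and -0.14 (± 0.12 SE, adjusted p = 0.975 by edgeR) in females. The difference between them, -0.29 (± 0.16 SE, adjusted p = 0.999 by edgeR), did not pass. Ppard, the second PPAR of cardiac muscle, was 32.9, 36.9 and 38.9 CPM in Ctrl males and 36.6, 39.7 and 41.1 CPM in cKO males. All 7 cKO males lay above the control mean and the groups overlapped between 36.6 and 38.9 CPM. The log2 fold change was 0.11 (± 0.052 SE, 95% interval 0.0078 to 0.22, adjusted p = 0.338 by edgeR), with an unadjusted p of 0.0364. In females Ppard was 36.3 to 42.9 CPM in Ctrl and 35.3 to 42.4 CPM in cKO mice with a log2 fold change of -0.035 (± 0.053 SE, adjusted p = 0.987 by edgeR), and the difference between the sexes was -0.15 (± 0.074 SE, adjusted p = 0.999 by edgeR).

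Nrf1 encodes nuclear respiratory factor 1, a factor for respiratory chain genes, and was the least abundant regulator per length. Its lowest, median and highest values were 11.02, 12.6 and 13.8 CPM in Ctrl males and 10.9, 11.7 and 12.6 CPM in cKO males. In females they were 9.50, 10.96 and 12.4 CPM in Ctrl and 10.9, 12.7 and 14.8 CPM in cKO mice. The control females were the lowest group, and 6 of 7 cKO females lay above their mean. The log2 fold change was 0.20 (± 0.078 SE, 95% interval 0.043 to 0.36, adjusted p = 0.924 by edgeR) in females, with an unadjusted p of 0.0149, and -0.091 (± 0.077 SE, adjusted p = 0.669 by edgeR) in males. The genotype effects of the sexes differed by 0.29 (± 0.11 SE, 95% interval 0.070 to 0.52, adjusted p = 0.999 by edgeR), with an unadjusted p of 0.0120. Neither passed the adjustment over all genes. Gabpa had the lowest coefficient of variation of the regulators in 3 groups, but not in Ctrl females, where it was 8.51% against 6.42% for Esrrg. It was 36.2 to 41.5 CPM in Ctrl males, 38.0 to 42.4 in cKO males, 34.6 to 44.3 in Ctrl females and 36.9 to 42.1 in cKO females. Its 95% interval for cKO over Ctrl ran from -5.89% to 8.37% in males and from -6.85% to 7.39% in females.

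Tfam came nearest to the threshold among the genotype effects. Its lowest, median and highest values were 40.2, 47.1 and 50.04 CPM in Ctrl males and 39.0, 41.3 and 45.5 CPM in cKO males. Of the Ctrl males, 5 lay between 44.6 and 50.04 CPM and Ctrl male 6 at 40.2 CPM, inside the range of the cKO males. All 7 cKO males were below the control mean, 41.7 ± 2.08 CPM (SD, n = 7) against 46.2 ± 3.39 CPM (SD, n = 6). The log2 fold change was -0.15 (± 0.060 SE, 95% interval -0.27 to -0.025, adjusted p = 0.265 by edgeR), with an unadjusted p of 0.0198. In females Tfam was 37.5, 42.8 and 48.7 CPM in Ctrl and 36.2, 41.7 and 45.2 CPM in cKO mice, with a log2 fold change of -0.049 (± 0.060 SE, adjusted p = 0.982 by edgeR). Averaged over the sexes, where 1.33% of all genes were called (0.469% higher and 0.866% lower), 0 of the 10 regulators were, and Tfam, at -0.099 (± 0.043 SE, adjusted p = 0.269 by edgeR), was the 1 regulator with an unadjusted p under 0.05 (0.0279). DESeq2 and limma voom called 0 of 10 in this comparison too.

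**Figure D2:**
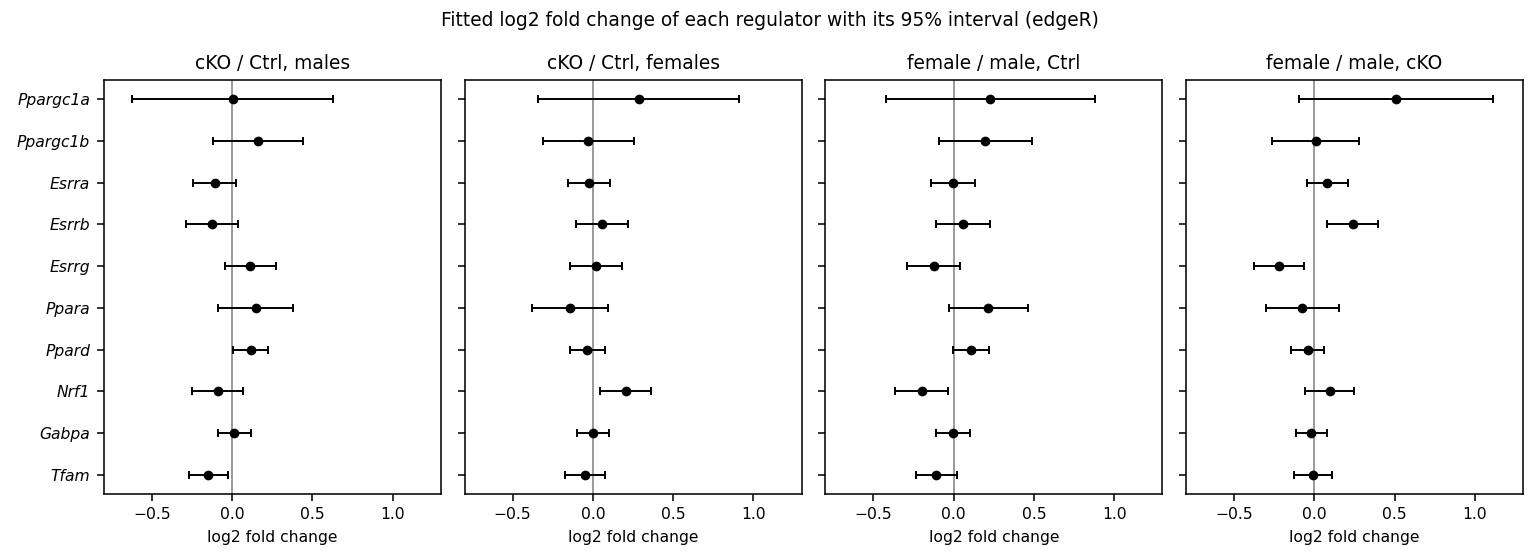
Log2 fold change (x axis) of each regulator in 4 comparisons, with the point at the edgeR estimate and whiskers for its 95% interval; the grey line marks 0. The intervals are widest for Ppargc1a, and those of Tfam and Ppard in males, Nrf1 in Ctrl and between genotypes in females, and Esrrb and Esrrg between the sexes in cKO mice leave out 0 without passing the adjusted threshold.

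The sexes were also compared within each genotype. In Ctrl mice 0 of 10 regulators were called, where 0.638% of all genes were (0.287% higher and 0.352% lower in females), and in cKO mice 0 of 10, where 2.7% were (1.43% higher and 1.27% lower); DESeq2 and limma voom called 0 of 10 in both. At an unadjusted p under 0.05 there was 1 regulator in Ctrl mice and 2 in cKO mice, against 1854 and 2651 genes of all. In Ctrl mice this was Nrf1, with all 6 females below the male mean and a log2 fold change, female over male, of -0.20 (± 0.080 SE, adjusted p = 0.299 by edgeR). In cKO mice the ERR genes stood in opposite directions. Esrrb was 32.2 to 37.8 CPM in males and 32.0 to 47.4 CPM in females, with 6 of 7 females above the male mean and the seventh, cKO female 2, below every male. Its log2 fold change was 0.24 (± 0.076 SE, 95% interval 0.081 to 0.39, adjusted p = 0.0877 by edgeR). Without cKO female 2 it was 0.29 and passed the test (adjusted p = 0.0208 by edgeR), the only call of a regulator under any alternative. Over the 23 alternatives this adjusted p ran from 0.0208 to 0.172. Esrrg was 34.8 to 45.0 CPM in males and 28.2 to 39.5 CPM in females, with all 7 females below the male mean and a log2 fold change of -0.22 (± 0.075 SE, 95% interval -0.37 to -0.065, adjusted p = 0.109 by edgeR). In Ctrl mice the same comparison gave 0.056 (± 0.082 SE, adjusted p = 0.854 by edgeR) for Esrrb and -0.12 (± 0.081 SE, adjusted p = 0.581 by edgeR) for Esrrg. The difference of these sex effects between genotypes equals that of the genotype effects between sexes, 0.18 (± 0.11 SE, adjusted p = 0.999 by edgeR) for Esrrb and -0.096 (± 0.11 SE, adjusted p = 0.999 by edgeR) for Esrrg, and passed for neither.

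Levels of different genes were compared only per length, as CPM per kb of the longest annotated transcript, averaged over the 26 mice. Esrra was the most abundant regulator at 63.8 CPM per kb, followed by Ppargc1a at 31.6. Tfam and Ppard (10.3 each), Esrrb (9.26), Gabpa (7.96), Ppara (7.20) and Esrrg (6.88) formed a middle tier, and Ppargc1b (3.88) and Nrf1 (2.97) were lowest. Esrra exceeded Ppargc1a in every mouse except 1 of the 7 cKO females, and Ppargc1a lay above the middle tier without overlap in all groups. Within the tier most neighbours overlapped: Tfam and Ppard did so in every group, and Ppara and Esrrg changed places between males and females. The step to Ppargc1b was free of overlap in all groups but cKO females. Per length of all annotated exons together, Esrra was at 36.2 and Ppargc1a at 31.01 CPM per kb, the same order over the 26 mice. Only in the mean of the cKO females was Ppargc1a then the higher of the 2 (38.3 against 36.4). That group holds cKO female 2, at 564 CPM of Ppargc1a. By the length of all exons Ppard was at 5.09 CPM per kb and moved from rank 4 to rank 8, and Nrf1 was still lowest at 1.17.

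**Figure D3:**
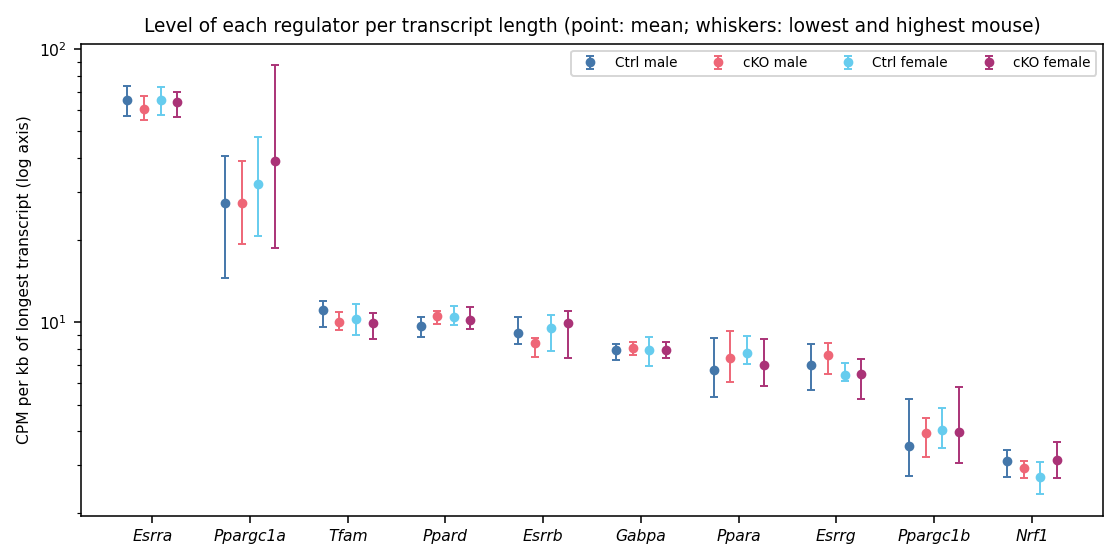
CPM per kb of the longest transcript (y axis, log scale) for each regulator in the 4 groups; points are group means and whiskers run from the lowest to the highest mouse. Esrra and Ppargc1a stand above the other 8 genes in every group, and the cKO females have the widest range of Ppargc1a.

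The partners of these factors were next. They include the related coactivators Pprc1 and Perm1, the RXR partners of the PPARs, and GABPβ subunits. Of 26 genes 0 were called in males or in females, where 0.443% and 0.0326% of all genes were. Their medians were 0.045 and 0.0015 on the log2 scale, against 0.0010 and 0.0028 over all genes. At an unadjusted p under 0.05 there were 8 and 1, against 2027 and 791 of the 15357 genes. In males DESeq2 called 2 of the 26 and 386 of all genes, and limma voom 1 and 85. Averaged over the sexes edgeR called 1 of the 26, where 1.33% of all genes were called. There limma voom called 1 of the 26 and 193 of all genes, and DESeq2 2 and 525. By edgeR the averaged count of the 26 was 0 when blocked on the replicate number, 0 after the length and GC correction, and 0 without Ctrl male 5.

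Of the factors' target genes, 8 fell in cKO males, and 0 of the 10 regulators were called. At 0.443% of all genes called, 0 of 10 does not set the regulators apart from other genes. Of 29 tested PPAR target genes 3 fell and 0 rose in males, and 24 had fold changes below 0 (median -0.17). Of 23 ERR target genes 3 fell and 0 rose, with 20 below 0 (median -0.14), and of 18 NRF-1 and GABP target genes 2 fell and 0 rose, with 17 below 0 (median -0.17). Over all genes 0.443% were called, 7640 of 15357 lay below 0 and the median was 0.0010. The lists name genes described as targets elsewhere, and some respond to several of the factors; lower levels of oxidative phosphorylation genes in these libraries were known when the lists were drawn up. The calls over all genes, 68 in the main fit, moved as well and are given in brackets. DESeq2 called 6, 10 and 9 genes of the 3 lists in males (386). Without Ctrl males 3 and 6 edgeR called 3, 1 and 0 genes (7). The length and GC correction gave 2, 1 and 0 (32), and that correction with the replicate block 1, 1 and 0 (17). With only the male groups in the fit the calls were 2, 1 and 1 (72), and without filter on low counts 3, 2 and 0 (31). Leaving out single mice gave 1 to 3, 0 to 3 and 0 to 3 calls (4 to 79), with the lowest list counts first reached without Ctrl males 4, 5 and 1.

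The PPAR targets that fell were Eci1, Acadvl and Acaa2, enzymes of mitochondrial fatty acid oxidation. Eci1 was 289.7, 329 and 382 CPM in Ctrl males and 238, 249.9 and 295 CPM in cKO males, which overlapped only narrowly, and fell by 0.35 on the log2 scale (SE 0.054, edgeR adjusted p = 0.00314). Acadvl, which starts the oxidation of very long chains, fell by 0.26 (edgeR adjusted p = 0.0272), and Acaa2, the last enzyme of the cycle, by 0.31 (edgeR adjusted p = 0.0316). The ERR targets that fell were Sdhb, Cycs and Slc25a4. Sdhb, a subunit of complex II whose promoter is printed above, was 843, 872 and 938 CPM in Ctrl males and 671, 727 and 797 CPM in cKO males. All cKO males lay below all Ctrl males, and the log2 fold change was -0.26 (± 0.046 SE, adjusted p = 0.0132 by edgeR). Cytochrome c (Cycs) fell by 0.25 (edgeR adjusted p = 0.0316) and the ADP/ATP carrier Slc25a4 by 0.18 (edgeR adjusted p = 0.0487). The NRF-1 and GABP targets that fell were Atp5c1, a subunit of ATP synthase, and Sdhd, of complex II. Atp5c1 was 1220.0, 1251 and 1316 CPM in Ctrl males and 1067, 1093 and 1141 CPM in cKO males, without overlap, a log2 fold change of -0.20 (± 0.042 SE, adjusted p = 0.0316 by edgeR). Sdhd fell by 0.19 (edgeR adjusted p = 0.0316).

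In females 0 genes of the 3 lists were called, where 0.0326% of all genes were, and DESeq2 and limma voom called 0 as well. The fold changes were nevertheless mostly negative: 26 of 29 PPAR targets (median -0.082), 23 of 23 ERR targets (median -0.093) and 16 of 18 NRF-1 and GABP targets (median -0.063) lay below 0, against 7510 of all 15357 genes (median 0.0028). At an unadjusted p under 0.05 there were 4, 8 and 3 genes of the lists, and 791 over all genes. Named by the smallest p in each list, Eci1 had a female log2 fold change of -0.17 (± 0.054 SE, adjusted p = 0.825 by edgeR), Sucla2, a subunit of succinyl-CoA ligase, -0.13 (± 0.041 SE, adjusted p = 0.766 by edgeR), and Ndufs8, of complex I, -0.15 (± 0.051 SE, adjusted p = 0.825 by edgeR). The difference between the sexes was called for 0 genes of the lists, with 3, 2 and 2 at an unadjusted p under 0.05.

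Averaged over the sexes, 3 PPAR targets, 8 ERR targets and 5 NRF-1 and GABP targets fell and 0 rose, where 1.33% of all genes were called. The ERR targets were Sdhb, Sucla2, Cycs, Slc25a4, Atp5b, Uqcrc1, Ndufv1 and Atp5a1, which belong to the citric acid cycle, the respiratory chain and ATP synthesis. Sucla2, the second of them by p, fell by 0.15 (SE 0.029, edgeR adjusted p = 0.00965). The calls over all genes, 205 in the main fit, are again given in brackets. Blocking on the replicate number gave counts of 2, 4 and 4 (170), the length and GC correction 2, 4 and 3 (165), and both together 2, 3 and 2 (140). Without filter on low counts they were 3, 4 and 3 (113), with DESeq2 7, 14 and 9 (525), and without Ctrl males 3 and 6 5, 12 and 4 (249). Leaving out single mice gave 2 to 6, 4 to 13 and 3 to 8 (96 to 349), with 4 ERR targets without Ctrl male 1 and 13 without Ctrl female 6. In the same contrast all 8 cardiomyocyte markers had fold changes below 0, and Tnni3 was called at -0.17 (± 0.036 SE, adjusted p = 0.0168 by edgeR). All 3 tested atrial markers lay above 0, and Stard10 was called at 0.29 (± 0.076 SE, adjusted p = 0.0473 by edgeR); limma voom called 0 of them. The part of these markers in the target gene values was not tested.

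Summed over a list, the CPM of ERR targets ranged from 48755 to 51762 in Ctrl males and from 43850.5 to 48197 in cKO males, and those of NRF-1 and GABP targets from 9022 to 9733 and from 7830 to 8526, both without overlap. PPAR targets overlapped, at 18142 to 19889 and 15817 to 18779. In females the sums of all 3 lists overlapped between Ctrl and cKO mice. They were 46796 to 51478 and 44498 to 49026 CPM for ERR targets, and 9000 to 10093 and 8399 to 10007 CPM for NRF-1 and GABP targets. PPAR targets were at 18376 to 21447 and 17911 to 20466 CPM. Such sums give most weight to the most abundant genes of a list. Cardiomyocyte markers lay on the same side as these lists in males. Of 8 markers 7 had fold changes below 0, and 1, Tnni3, was called at -0.24 (± 0.051 SE, adjusted p = 0.0316 by edgeR). Their sum was 64770 to 72642 CPM in Ctrl males and 57007 to 68050 CPM in cKO males, below the control mean in 7 of 7 mice (exact permutation p = 0.0140, adjusted 0.188 over 48 tests). All 6 fibroblast markers had fold changes above 0 in males, but those of Pdgfra (0.0093), Dcn (0.023) and Tcf21 (0.072) were small. EdgeR called 0, with Col1a1 nearest at 0.52 (± 0.12 SE, adjusted p = 0.0553 by edgeR). DESeq2, limma voom, a minimum mean of 5 CPM, and a fit of only the male groups each called 1. Their sum was 746 to 1150.2 and 891 to 1205 CPM. All 3 tested atrial markers had fold changes above 0, with a sum of 104 to 442 and 144 to 759 CPM, nearly all of it Nppa (exact permutation p = 0.0245, adjusted 0.188). The part of cell composition in the fold changes of the target genes was not tested.

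**Figure D4:**
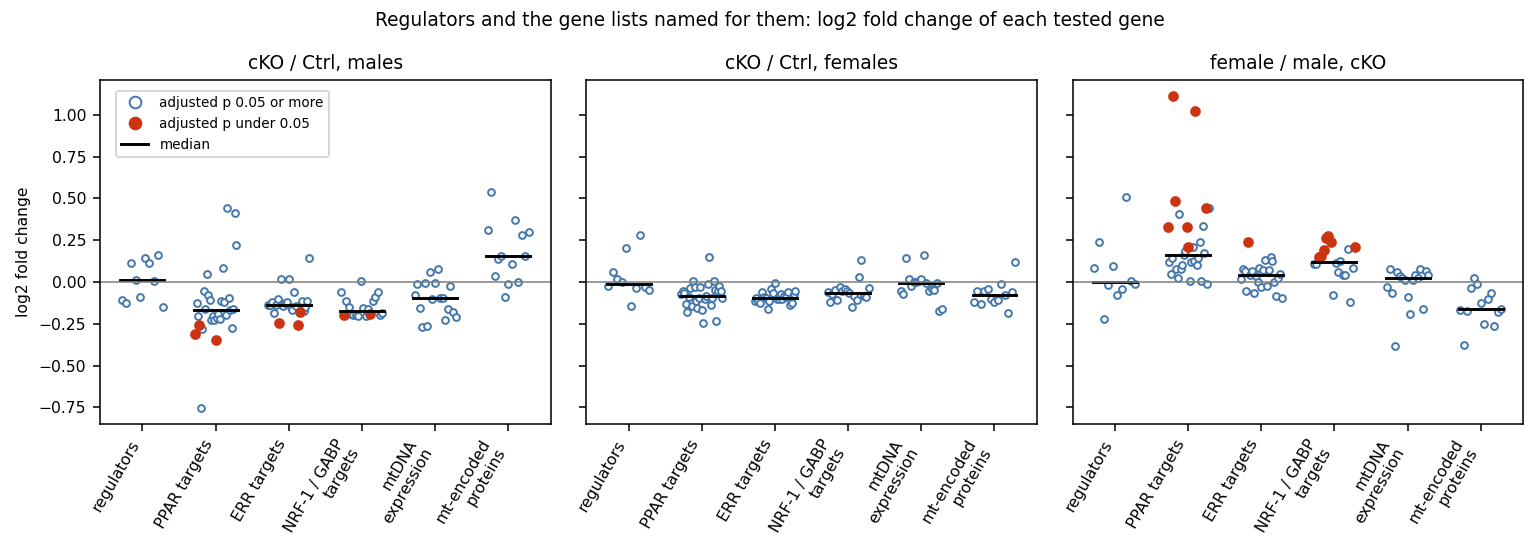
Log2 fold change (y axis) of each tested gene in the regulators and 5 gene lists, for cKO over Ctrl in males and in females and for female over male in cKO mice; filled points passed an edgeR adjusted p under 0.05 and black lines are medians. In males the medians of the 3 target lists lie between -0.17 and -0.14. That of the regulators is 0.0092, with single regulators from -0.15 (Tfam) to 0.16 (Ppargc1b).

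Genes for the transcription and replication of mitochondrial DNA, the partners of Tfam, were not called in either sex (0 of 17 in each). Of all genes 0.443% were called in males and 0.0326% in females. In males 15 of 17 had fold changes below 0 (median -0.098), with 3 at an unadjusted p under 0.05, and in females 12 of 17 (median -0.0082), with 0. Over all 15357 genes 2027 in males and 791 in females had an unadjusted p under 0.05. DESeq2 and limma voom called 0 in both sexes as well. The smallest p in males was that of Mterf4, of the mitochondrial termination factor family, with a log2 fold change of -0.26 (± 0.083 SE, adjusted p = 0.128 by edgeR). The 13 proteins encoded by mitochondrial DNA itself had mostly positive fold changes in males, without a call: 10 of 13 had fold changes above 0 (median 0.15), 0 of them at an unadjusted p under 0.05. In females 12 of 13 lay below 0 (median -0.080), with 0 called and 1 at an unadjusted p under 0.05. The libraries were made from poly-A RNA, and the summed level of these genes varied widely within groups, from 139437 to 192042 CPM in Ctrl males alone.

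Between cKO females and cKO males, target genes were called and 0 of the 10 regulators were. At 2.7% of all genes called, 0 of 10 does not set the regulators apart from other genes. These cKO males are the same mice as in the comparison of genotypes in males, so the values share them. In this contrast, where 2.7% of all genes were called, 7 of 29 PPAR targets, 1 of 23 ERR targets and 7 of 18 NRF-1 and GABP targets were higher in females and 0 were lower. The PPAR targets included Acaa2, Slc27a1, Ech1, Eci1, Acot2 and Acot1. The fatty acid transporter Slc27a1 was higher in cKO females by 0.44 (± 0.10 SE, adjusted p = 0.0223 by edgeR), and Acaa2 by 0.33 (± 0.065 SE, adjusted p = 0.00727 by edgeR). Acot1 and Acot2 are near-identical neighbours that can share reads, so their values, 1.11 and 0.48, are uncertain. The ERR target was Cox6a2, the muscle form of a complex IV subunit, at 0.24 (± 0.054 SE, adjusted p = 0.0170 by edgeR). Of the NRF-1 and GABP targets, 6 were complex IV subunits, and 1, Uqcrh, was a complex III subunit; the smallest p was that of Cox7a2, at 0.27 (± 0.059 SE, adjusted p = 0.0126 by edgeR). Without filter on low counts the 3 lists had 2, 1 and 2 calls, where 244 of all genes were called instead of 414. With the length and GC correction and the replicate block they had 3, 0 and 3, where 220 of all genes were called. Without cKO male 1 the NRF-1 and GABP list had 1, and without cKO male 7 the PPAR list had 2. Over all genes, single mice left out gave 163 to 548 calls. Cardiomyocyte markers were again on the same side: 2 of 8 were called, both higher in females (Tnni3 0.24, Myl2 0.26). The atrial marker Stard10 was also higher in females, at 0.40 (± 0.10 SE, adjusted p = 0.0308 by edgeR). Several sample measures differed between these groups before but not after adjustment over 48 tests. Mean cardiomyocyte marker sums were 68143 CPM in females and 62348 CPM in males (exact permutation p = 0.0216, adjusted 0.188). Fibroblast marker sums were 765 to 989.9 CPM in females and 891 to 1205 CPM in males (exact permutation p = 0.0111, adjusted 0.188). Mean adipocyte marker sums were 5.15 and 2.02 CPM (exact permutation p = 0.0361, adjusted 0.217). Of these markers Plin1, Cidec and Adipoq were at low counts, with cKO group means from 0.26 to 0.81 CPM, where 3 counts were 0.21 CPM in cKO female 2. Cfd averaged 2.88 and 0.88 CPM. Mitochondrially encoded genes took 16.7% and 18.3% of counts (exact permutation p = 0.0239, adjusted 0.188). Library totals were 14403100 to 21594470 and 17372410 to 25447630 counts (exact permutation p = 0.0274, adjusted 0.188). The part of these measures in the target gene values was not tested.

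Regulators that varied together from mouse to mouse were sought after subtracting each group's mean from log2 CPM, over all 26 mice and all 45 pairs, with p from 100000 permutations within groups. Of the 45 pairs, 3 passed by Pearson's r. The closest pair was Esrra and Tfam, with Pearson's r = 0.680 (permutation p adjusted over 45 pairs = 0.018) and Spearman's rho = 0.647 (adjusted p = 0.014). The relation had the same sign in each group (r = 0.675 in Ctrl males, 0.877 in cKO males, 0.663 in Ctrl females and 0.634 in cKO females), and r was 0.645 without the 2 mice farthest in Esrra. Esrrg and Ppara followed, with r = 0.645 (adjusted p = 0.040) and rho = 0.684 (adjusted p = 0.014), and r = 0.582 without the 2 farthest mice. Within groups their r was 0.922 in Ctrl males, 0.548 in cKO males and 0.493 in cKO females, but 0.062 in Ctrl females. Esrrb and Tfam had r = 0.654 (adjusted p = 0.029) and rho = 0.537 (adjusted p = 0.087), and r = 0.465 without Ctrl female 2 and cKO female 2. Ppargc1a and Tfam had a negative r of -0.523 (adjusted p = 0.104), which was -0.346 without cKO females 2 and 3. All values come from 1 library per mouse, so that a mouse's depth and composition are shared by both genes of a pair.

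**Figure D5:**
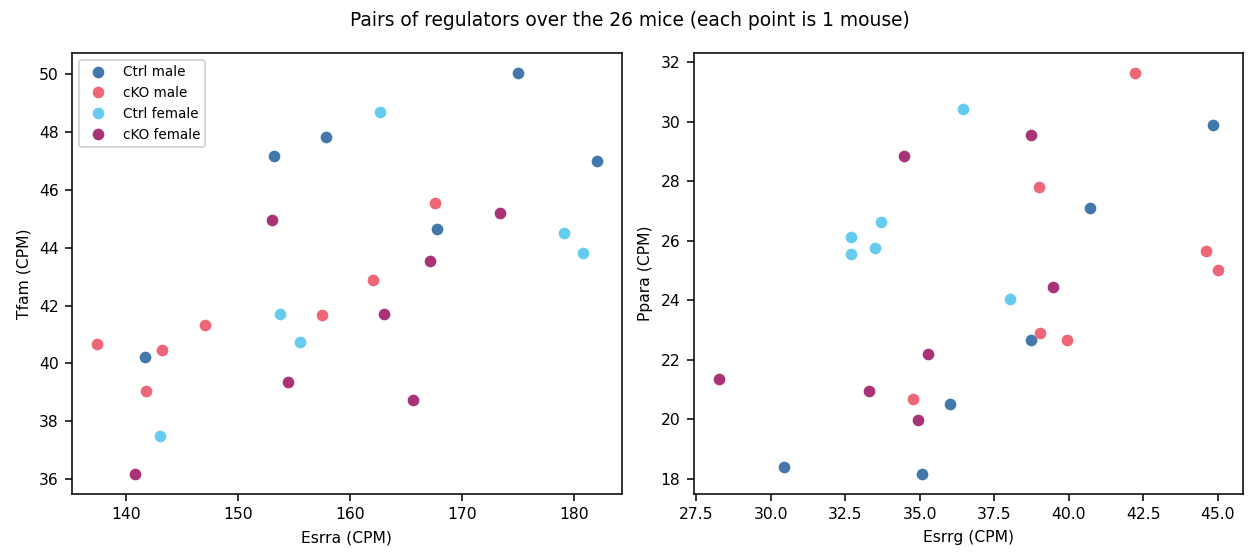
CPM of Tfam against Esrra (left) and of Ppara against Esrrg (right); each point is 1 of the 26 mice, coloured by group. Mice with more Esrra tended to have more Tfam in every group, with exceptions. Ppara tended to follow Esrrg in 3 groups and not in Ctrl females. The relations were not tested within single groups.

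The regulators were also set against the mean log2 CPM of the PPAR, ERR, NRF-1 and GABP target lists and the mitochondrially encoded proteins, in 40 relations over the 26 mice. Pearson's r ranged from -0.217 to 0.641, and 0 of 40 passed by r after adjustment. Esrrg with the ERR targets had r = 0.641 (permutation p adjusted over 40 = 0.052) and rho = 0.637 (adjusted p = 0.031), with r = 0.652 without the 2 farthest mice. Esrrb with the ERR targets had r = 0.587 (adjusted p = 0.052) and rho = 0.760 (adjusted p = 0.001), with r = 0.787 without Ctrl female 2 and cKO female 2. Ppargc1a had r = 0.029 with the ERR targets (permutation p = 0.894) and -0.122 with the PPAR targets (permutation p = 0.568).

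For the regulators named here the 3 most similar of all tested genes were taken by Pearson's r of log2 CPM over the 26 mice, as a description. For Ppargc1a they were Ell, Siah2 and Tinagl1 (r from 0.828 to 0.837, and 0.771 to 0.820 without cKO female 2). This list changed with the mice and the measure. After subtracting group means it was Siah2, Elf2 and Slc38a2, and without cKO female 2 Siah2 (0.820) and Anks1 (0.811) came first. The lists of the other regulators are given over all 26 mice only. For Esrra they were Fitm2, Ncln and Got1 (0.803 to 0.824), and for Esrrb Slc22a5, Acacb and Kcnj12 (0.834 to 0.839). Esrrg went with Celf1 (0.871), Msi2 (0.861) and Rab21 (0.843). Ppara went with Slc39a14 (0.842), Dag1 (0.771) and Zbtb34 (0.767), Gabpa with Tnrc6b, Slc8a1 and Zbtb18 (0.709 to 0.758), and Tfam with Gmnn, Timm44 and Adck1 (0.836 to 0.847). Ppard went with Phf2 (0.694), Zfp236 (0.685) and Plekhm2 (0.678), and Ppargc1b with Uckl1os (0.673), which was below 2 CPM on average, Mbd1 (0.654) and Atad2b (0.649).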

How the data were processed

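RNA sequencing counts per gene were analysed for 26 samples of mouse left ventricle. The authors deposited 1 matrix of raw counts; per the submitters' processing notes the tools were FastQC 0.74, cutadapt 4.6, STAR 2.7.11a and HTSeq, with build GRCm39. Per the labels' protocols the libraries were stranded and made from poly-A RNA; the annotation release, and whether counting used strand, are not given in the sources used here. All columns matched a sample (0 did not). The labels number the samples as replicates and do not say that each is a separate mouse, so p-values measure the spread between these samples.

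Genes passing edgeR's filterByExpr (minimum count 10) were scaled by TMM and fitted with edgeR's quasi-likelihood test over all 4 groups together, with Benjamini-Hochberg adjustment over all genes tested and a threshold of 0.05. CPM used TMM-scaled totals, and a prior count of 2 where logged. Depth ran from 14403100 to 30867400 counts (rounded); a floor of 3 counts was set, and no regulator was near it, with at least 175 counts in every mouse. The 72 pairs of libraries within groups differed by a chi-square of 7.84 to 36.6 per degree of freedom, so no library was counted as a repeat. Exact permutation tests were two-sided, and correlations used 100000 permutations. Lengths and GC content came from GENCODE M21, matched by gene identifier for 15092 (98.3%) of the genes tested. The fit was tested on simulated data. Tools were R 4.3.3 with edgeR 4.0.16, limma 3.58.1 and DESeq2 1.42.0, and Python 3.11.15 with numpy 2.4.6, scipy 1.17.1 and pandas 2.3.3.

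The regulators, the gene lists and the marker lists were chosen with earlier results of these data known. Named were all 10 regulators and Ppp2r2a, in each list the called genes of a contrast (the 6 of smallest p where there were more, others by symbol only), the gene of smallest p where none was called, and the 3 genes most similar to each regulator. Whether equal replicate numbers pair mice was not settled. The mean correlation of the deviations of same-numbered mice was -0.026 for Ctrl and cKO males and 0.12 for Ctrl and cKO females. Single pairs ran from -0.16 to 0.088 and from -0.097 to 0.404. Differently numbered mice had means of 0.0043 and -0.019, with single pairs from -0.18 to 0.20 and from -0.23 to 0.21. Alternatives were DESeq2's size factors and Wald test, limma voom, other filters, only the groups compared, the replicate number as a block, a length and GC correction, and each mouse left out. Leaving out cKO female 2 from the search for similar genes was chosen after seeing the data. Some genes that the naming rule selects are not reported here.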

Additional observations from a re-analysis of the deposited data

Results flagged for a closer look

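In 3 of the 44 combinations of a gene (the 10 regulators and Ppp2r2a) and a group, 1 mouse stood far from the others by Dixon's criterion, which chance meets in about 1 of 20 groups. Ctrl male 1 had 19.1546 CPM of Ppargc1b, with the next Ctrl male at 12.96 CPM; the gap was 0.679 of the group's range. cKO female 1 had 21.2847 CPM of Ppargc1b, with the next cKO female at 15.3 CPM and a gap of 0.587 of the range. cKO male 2 was lowest in Esrrb at 32.1752 CPM, with the next cKO male at 35.7 CPM and a gap of 0.630 of the range.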

How the results depend on the processing

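No regulator was called in males (23 settings), in females (23), for the difference between the sexes (35), between the sexes in Ctrl mice (22) or averaged over the sexes (35). Between the sexes in cKO mice 0 were called in 22 of 23 settings and 1 (Esrrb) without cKO female 2; over all settings 96 of 1610 fold changes of regulators changed sign. The calls over all genes moved more. In males the 68 calls became 386 with DESeq2's Wald test, 31 without filter, 164 at a mean of at least 5 CPM, 32 with the length and GC correction, 17 with that correction and the replicate block, 7 without Ctrl males 3 and 6, and 4 to 79 with single mice left out (4 without Ctrl male 5). In females the 5 calls became 9 with DESeq2, 3 with limma voom, 2 at a mean of at least 5 CPM, 1 with only the groups compared, 3 with the replicate block, 3 with block and length and GC correction, and 3 to 7 with single mice left out. Between the sexes in Ctrl mice the 98 calls became 253 with DESeq2, 61 with only the groups compared, 40 without Ctrl males 3 and 6, and 54 to 114 with single mice left out (54 without Ctrl male 3). In cKO mice the 414 calls became 708 with DESeq2, 244 without filter, 220 with block and length and GC correction, and 163 to 548 with single mice left out (163 without cKO female 4). Averaged over the sexes the 205 calls became 525 with DESeq2, 113 without filter, and 96 to 349 with single mice left out (96 without Ctrl male 5, 349 without Ctrl female 6). The fold changes that changed sign were small, apart from those of Ppargc1a and that of Ppargc1b between the sexes in cKO mice without cKO female 1 (-0.11). For Gabpa in females the log2 fold change was -0.0016 with DESeq2's size factors, -0.0013 with its Wald test, -0.0033 without filter, -0.020 with the length and GC correction, -0.011 with correction and block, -0.00063 without Ctrl males 3 and 6, and -0.035 to 0.035 with single mice left out. For Gabpa elsewhere, the correction gave -0.036 in males (-0.027 with the block), 0.016 for the difference (0.017), 0.023 between the sexes in Ctrl (0.022; also 0.022 without Ctrl males 3 and 6), 0.039 in cKO (0.039) and -0.028 on average (-0.019); single mice left out gave -0.0095 to 0.027, -0.050 to 0.020, -0.041 to 0.029 and, on average, -0.010 to 0.025. Ppargc1b between the sexes in cKO mice was -0.015 with limma voom, -0.00074 without filter, -0.0077 with the replicate block, -0.014 with the correction, -0.029 with both, and -0.11 to 0.063 with single mice left out; in females it was -0.15 to 0.030. Ppara averaged over the sexes was -0.0016 without filter, -0.014 with the correction, -0.018 without Ctrl males 3 and 6, and -0.031 to 0.046 with single mice left out. With the correction Ppargc1a in males was -0.052, Esrrg in females -0.0039, Esrra between the sexes in Ctrl 0.015 (0.012 with the block) and Tfam between the sexes in cKO 0.014 (0.013 with the block). With single mice left out Ppargc1a was -0.12 to 0.15 in males, -0.046 to 0.43 in females, -0.052 to 0.43 for the difference and -0.020 to 0.22 on average; the lowest values but the first came without cKO female 2. Likewise Esrra was -0.041 to 0.030 between the sexes in Ctrl and -0.059 to 0.0076 in females, Tfam -0.032 to 0.018 between the sexes in cKO and Esrrg -0.016 to 0.062 in females. Per length of all exons the levels were 36.2 CPM per kb for Esrra, 6.59 for Esrrb, 5.96 for Esrrg, 5.09 for Ppard, 1.17 for Nrf1 and 6.98 for Gabpa. The causes of these shifts were not tested.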

Other observations

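The other cell types of the ventricle were followed through their markers. In males and in females 0 of 6 endothelial, 0 of 6 smooth muscle and pericyte, 0 of 6 macrophage, 0 of 4 adipocyte and 0 of 5 erythroid markers were called by edgeR between genotypes, and 0 had an unadjusted p under 0.05. Summed endothelial markers were 1322 to 2013 CPM in Ctrl males and 1247 to 1702 CPM in cKO males, and macrophage markers 173 to 296 and 188 to 307 CPM. Summed adipocyte markers overlapped between the sexes and did not pass after adjustment, at 0.85 to 3.95 CPM in Ctrl males and 1.94 to 7.27 CPM in Ctrl females (exact permutation p = 0.0195, adjusted 0.188 over 48 tests). Plin1, Cidec and Adipoq were at low counts here, with Ctrl group means from 0.15 to 0.64 CPM. The atrial natriuretic peptide gene Nppa, which heart muscle expresses under load, was 220.05 ± 113 CPM (SD, n = 6) in Ctrl males and 489 ± 221 CPM (SD, n = 7) in cKO males, with an adjusted p of 0.171 by edgeR. It was 303 ± 130.4 CPM (SD, n = 6) in Ctrl females and 510.1 ± 218 CPM (SD, n = 7) in cKO females.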
